A study of Rattus norvegicus with 6 samples.

Results

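The genes described here are 39 genes of DNA repair and of the DNA damage checkpoint, chosen by name, and they were read on the array probes whose RefSeq accession belongs to them. Probes were matched for 33 of the 39 genes (49 probes), out of 15284 genes named on the array. The other 6, Lig3, Ercc4, Ercc5, Msh6, Atr and Rpa1, were not analysed here. Liver RNA came from 6 male Sprague-Dawley rats, purchased at 5 weeks of age and each measured on 1 array. In the ADBAQ group (n = 3) the rats had received 1-amino-2,4-dibromoanthraquinone, an anthraquinone dye intermediate known as a liver carcinogen in rats, at 1000 mg/kg/day. In the vehicle group (n = 3) the rats had received the carrier alone, which one label field calls purified water and another corn oil. Exposure is given as 28 days in some fields and as 9 weeks in another. The whole liver was sampled, so that fewer cells of a type and less RNA per cell cannot be told apart in any value below.

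DNA repair is divided by the kind of lesion. In base excision repair a glycosylase removes a damaged base, the endonuclease APE1 cuts the strand at the empty site, DNA polymerase beta fills the gap, and the XRCC1 complex with a ligase seals it. Nucleotide excision repair cuts out bulky adducts, mismatch repair corrects copying errors, and double-strand breaks are mended either by homologous recombination, which needs a sister copy and so works in dividing cells, or by end joining, which does not. The kinases ATM and ATR sense breaks and stalled forks and pass the signal to CHK2 and CHK1, which hold the cell cycle. The adult liver is mostly quiescent.

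Most genes of the set were not called different between ADBAQ and vehicle livers, and the 5 that were belonged to base excision repair and the checkpoint. Of the 33 genes, 31 had a probe that passed the detection filter (the scanner's well-above-background mark on each array of one group or the other) and were tested; for each of the 31 the probe used carried that mark on all 6 arrays. Apex1, Polb and Chek1 rose and Neil1 and Ung fell, with changes between 1.60-fold and 2.00-fold upward and to 67.6% and 69.2% of vehicle downward. These 5 are 16.1% of the genes tested, where 20.3% of all 11344 genes passed the same threshold (adjusted p under 0.05 by limma, adjusted over all probes tested); by direction, 3 of 31 rose against 9.05% of all genes, and 2 of 31 fell against 11.3%. At an unadjusted p under 0.05 the count was 9. The share of all genes at that threshold was not computed, so this count is not read as particular to the set. The 3 arrays of one group lay wholly above those of the other in 11 of the 31 genes (35.5%), against 46.3% of all genes. The median log2 fold change (ADBAQ minus vehicle) was 0.07 over the 31 genes and -0.04 over all genes. The share called among these genes was thus no higher than in the liver transcriptome as a whole.

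Levels are log2 of the processed signal relative to the array's 75th percentile, so that 0 is the level of that percentile, and fold changes are relative to it. With quantile normalization the split of 3 genes higher and 2 lower became 3 and 1. With scaling to the spike-in controls, RNAs added to every sample, it became 28 and 0. Of all genes 20% and 80.4% were called under these scalings in turn, 98% of the latter calls being higher. The spike-in scaling put the median of all genes at 0.72 on the log2 scale; relative to that shift Apex1 stood at 0.82, Polb at 0.71, Chek1 at 1.04, Neil1 at -0.49 and Ung at -0.53. Without vehicle replicate 2, 1 gene of the set was called lower, and without any other single array none was. Of the 3 genes called higher, between 2 and 3 were called with 1 array left out, while the share called among all genes dropped to between 7.89% and 13.5%.

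**Figure D1:**
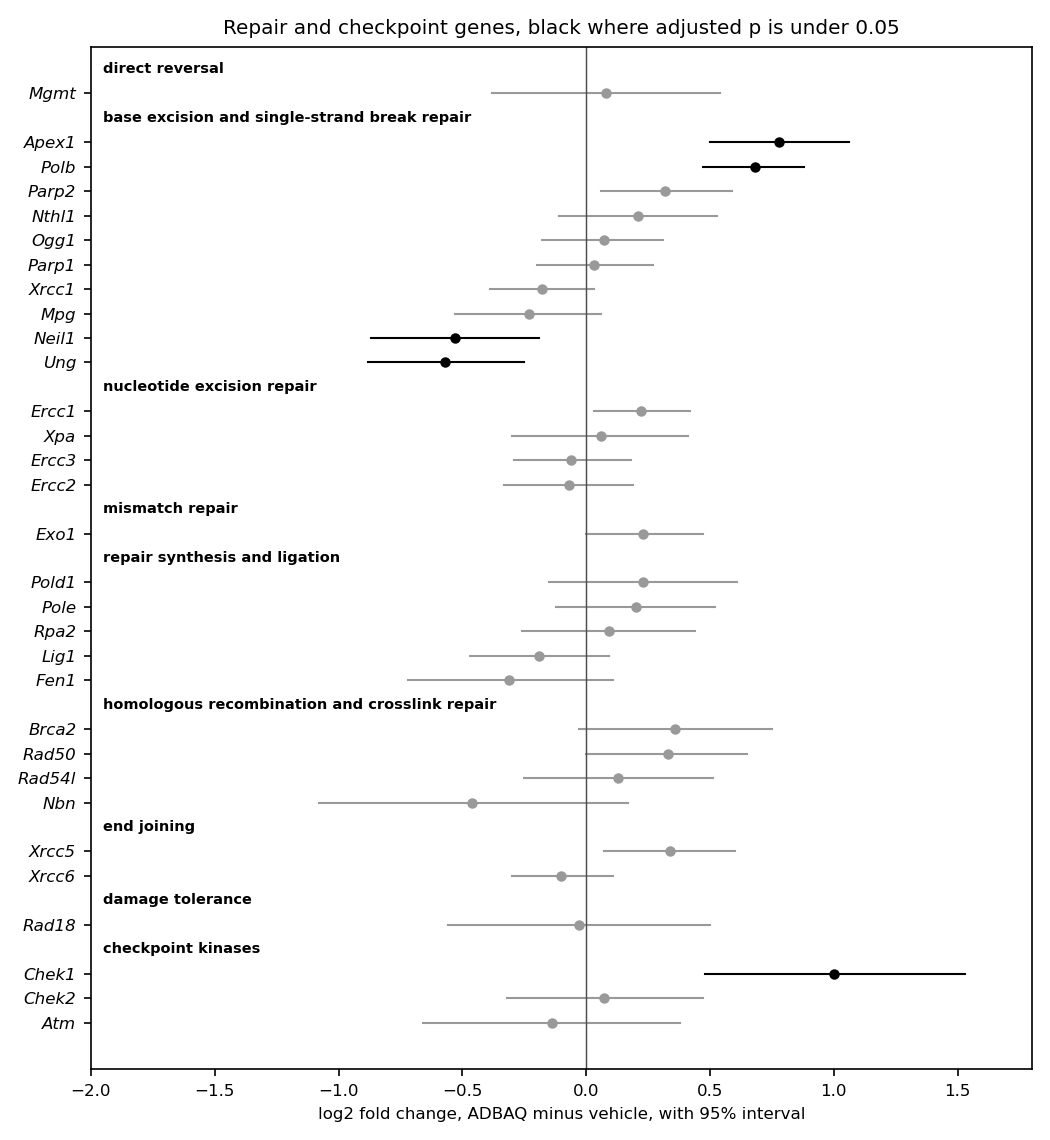
Log2 fold change (ADBAQ minus vehicle, horizontal axis) of the 31 tested repair and checkpoint genes, grouped by pathway down the page, with the 95% interval of limma as bars and black symbols where the adjusted p was under 0.05 (n = 3 rats per group). The 5 black genes lie in base excision repair and among the checkpoint kinases, and the intervals of 25 of the 26 grey genes stay within 1 log2 unit of 0.

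The stretches before the starts of Apex1, Chek1 and Ung are shown because they hold matches to motifs known from regulators of growth and division, on genes that moved in opposite directions. RefSeq promoter sequences (GRCr8) were matched for 27 of the 31 tested genes, and the 250 bases before the start were searched on both strands. Polb, which was called, and Nbn, Chek2 and Xpa had no matched sequence and were not searched. Capitals mark 8-base E2F forms (TTTGGCGC, TTTCCCGC, TTTCGCGC or TTTGCCGC) and the E-box CACGTG.
Apex1 (GRCr8 chr15:26617976-26618225, plus strand): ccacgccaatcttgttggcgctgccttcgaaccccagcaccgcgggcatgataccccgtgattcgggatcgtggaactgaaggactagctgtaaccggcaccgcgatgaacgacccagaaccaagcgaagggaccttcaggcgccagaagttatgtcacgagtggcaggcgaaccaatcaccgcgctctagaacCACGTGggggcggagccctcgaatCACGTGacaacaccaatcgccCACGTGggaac
Chek1 (GRCr8 chr8:44629844-44630093, minus strand): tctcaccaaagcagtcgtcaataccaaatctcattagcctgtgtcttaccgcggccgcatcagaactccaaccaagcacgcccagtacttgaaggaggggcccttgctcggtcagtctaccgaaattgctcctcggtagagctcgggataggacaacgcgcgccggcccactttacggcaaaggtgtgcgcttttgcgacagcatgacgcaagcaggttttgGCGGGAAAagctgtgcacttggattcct
Ung (GRCr8 chr12:48154046-48154295, minus strand): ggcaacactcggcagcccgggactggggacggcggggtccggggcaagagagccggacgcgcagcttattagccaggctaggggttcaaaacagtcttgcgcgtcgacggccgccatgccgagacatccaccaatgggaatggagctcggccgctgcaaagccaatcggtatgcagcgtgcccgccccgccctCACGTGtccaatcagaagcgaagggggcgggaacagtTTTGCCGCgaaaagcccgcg

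Apex1, which rose, had 3 E-boxes, whose first bases lay 56, 32 and 11 bases before the start, and no E2F form. Chek1, which rose, and Ung, which fell, each had 1 E2F form close to the start, at 28 and 20 bases before it; in Chek1 it was on the reverse strand. Ung also had 1 E-box at 57 bases. An E2F form was present in 4 of the 27 promoters (14.8%) and in 1.81% of all 27457 promoters of that length. An E-box was present in 5 of 27 (18.5%) against 5.79%. Genes not called also held these motifs: Atm and Nthl1 an E2F form, and Fen1, Mgmt and Rad50 an E-box. The E-box was added to the search after the sequences were seen. The core of the aryl hydrocarbon receptor element, GCGTG, was in 15 of 27 (55.6%) against 27.2%, with 1 match each in Apex1, Chek1, Ung and Neil1. The rest of the 15 were genes not called, among them Mgmt with 4 matches and Xrcc6 with 3. The antioxidant element core TGACNNNGC (2 of 27, 7.41%, against 10.2%), the cell cycle element TTTGAA (2 of 27, 7.41%, against 16.0%) and the cyclic AMP element TGACGTCA (0 of 27, against 1.70%) were the other motifs searched. The base composition of these sets was not matched, and a match of letters is not a bound site.

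Apex1 encodes APE1, the endonuclease that cuts DNA at abasic sites. Its level was 4.87, 4.70 and 4.68 on the ADBAQ arrays, against 3.79, 4.06 and 4.06 on the vehicle arrays. Every ADBAQ value lay above every vehicle value, by more than the spread within either group. The log2 fold change was 0.78 ± 0.12 (SE, n = 3 per group; adjusted p = 0.0106), a 1.72-fold rise. The second Apex1 probe read 3.82, 3.67 and 3.67 on ADBAQ arrays, against 2.86, 3.09 and 3.17 on vehicle arrays. It rose by 0.68 ± 0.11 (adjusted p = 0.0144), so both probes passed the threshold. Apex1 was the only gene of the set with several tested probes of which any was called.

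Polb encodes DNA polymerase beta, which fills the gap that APE1 opens. It read 0.05, 0.03 and 0.08 on the ADBAQ arrays, against -0.63, -0.54 and -0.70 on the vehicle arrays. The ADBAQ rats differed among themselves by 0.05 at most, and the groups were far apart on this scale. The rise was 0.68 ± 0.09 (adjusted p = 0.00782), or 1.60-fold. The gene had 1 probe. Apex1 and Polb were called with each of the 6 arrays left out in turn, with values from 0.69 to 0.83 and from 0.64 to 0.72.

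Ung and Neil1, both glycosylases of the same pathway, fell. Ung removes uracil from DNA; it read 0.26, 0.55 and 0.46 on the ADBAQ arrays, against 1.17, 0.84 and 0.95 on the vehicle arrays. The groups did not overlap, but the highest ADBAQ value and the lowest vehicle value were within 0.3 of each other. Its log2 fold change was -0.57 ± 0.13 (adjusted p = 0.032), which is 67.6% of the vehicle level. The call was lost without any one ADBAQ array or without vehicle replicate 1 or 3, with adjusted p from 0.061 to 0.096. Neil1 removes oxidised bases; it read -2.55, -2.64 and -3.01 on the ADBAQ arrays, against -2.11, -2.25 and -2.25 on the vehicle arrays. Its change of -0.53 ± 0.14 (adjusted p = 0.0467, 69.2% of vehicle) stood just under the threshold. Leaving out any single array lost it, with adjusted p from 0.0669 to 0.11. Scaled to the spike-in controls, both values changed sign, at 0.19 for Ung and 0.23 for Neil1, and neither was called.

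**Figure D2:**
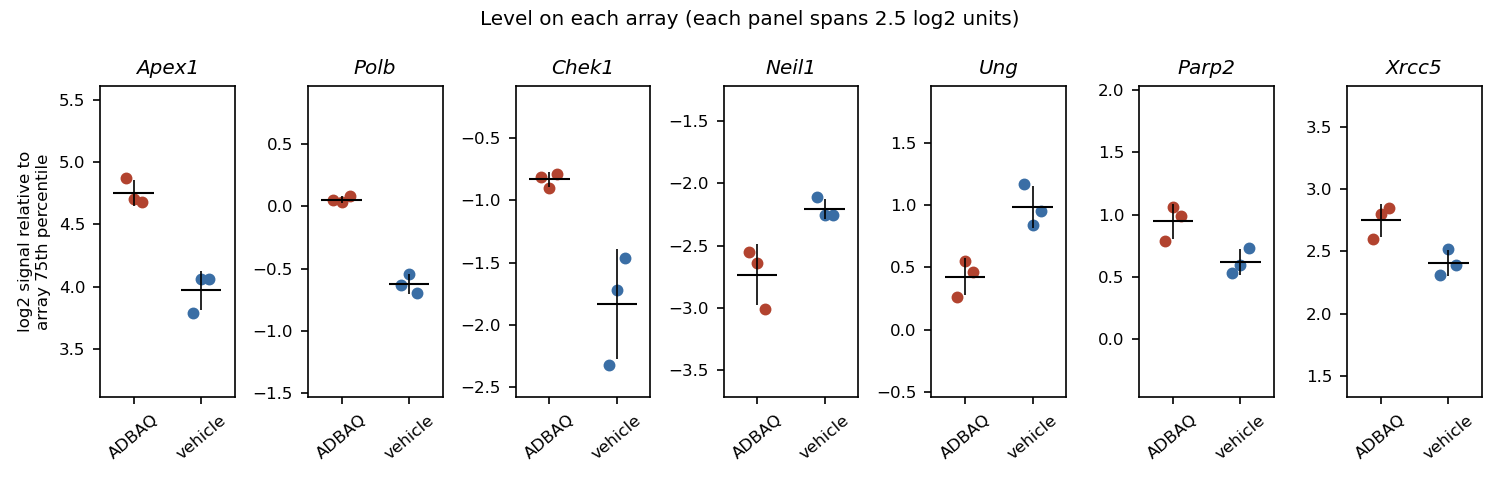
Level (log2 signal relative to the array's 75th percentile, vertical axis) of Apex1, Polb, Chek1, Neil1, Ung, Parp2 and Xrcc5 on each array, with ADBAQ arrays in red and vehicle arrays in blue, and the mean and SD of each group in black (n = 3). Each panel spans the same range of log2 units; the ADBAQ points lie above the vehicle points in all panels except those of Neil1 and Ung, where they lie below.

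The remaining 6 tested genes of base excision and single-strand break repair did not pass. Parp2, a sensor of single-strand breaks, came closest: 0.79, 1.06 and 0.99 on ADBAQ arrays, against 0.53, 0.60 and 0.73 on vehicle arrays, without overlap (0.32 ± 0.11, adjusted p = 0.0898). Its second probe had 0.34 ± 0.09 (adjusted p = 0.0515). Parp1, the major poly(ADP-ribose) polymerase, had 0.03 ± 0.10 with an interval from -0.20 to 0.27, and Ogg1, the glycosylase for 8-oxoguanine, 0.07 ± 0.10 with an interval from -0.18 to 0.31. For both the interval ended well short of the change seen in Apex1. Nthl1, a glycosylase for oxidised pyrimidines, had 0.21 ± 0.13 (adjusted p = 0.302). The alkyladenine glycosylase Mpg had -0.23 ± 0.12 (adjusted p = 0.221) and the scaffold Xrcc1 -0.18 ± 0.09 (adjusted p = 0.194). With normexp background correction Xrcc1 was called lower (-0.25, adjusted p = 0.033). Within this pathway, then, 2 of 10 genes rose, 2 fell and the median was 0.05. Among all genes 9.05% rose and 11.3% fell. A count over 10 genes is small and is not read as particular to the pathway. Of the 10 tested genes of the same pathway outside the set, 1 rose and none fell.

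Mgmt, which removes alkyl groups from guanine directly, showed no call in either direction. It read 4.03, 3.36 and 3.90 on ADBAQ arrays, against 3.54, 3.83 and 3.69 on vehicle arrays, and the groups overlapped (0.08 ± 0.19, interval from -0.38 to 0.54). None of the 4 nucleotide excision repair genes tested was called by limma, and 1 had an unadjusted p under 0.05. That was Ercc1, the non-catalytic subunit of the nuclease that cuts 5′ of the adduct, at 1.20, 1.19 and 1.25 on ADBAQ arrays, against 0.93, 1.00 and 1.04 on vehicle arrays (0.22 ± 0.08, adjusted p = 0.106). Its groups did not overlap, and under normexp background correction it passed (0.33, adjusted p = 0.0126). On the other Ercc1 probe the groups overlapped, at 0.12 ± 0.09 (adjusted p = 0.375). The damage verifier Xpa (0.06 ± 0.15) and the helicases of transcription factor IIH, Ercc2 (-0.07 ± 0.11) and Ercc3 (-0.06 ± 0.10), had intervals that spanned 0 and stayed within 0.41 of it. Exo1, an exonuclease of mismatch repair, was the single tested gene of that pathway, at 0.23 ± 0.10 (adjusted p = 0.142); its other probe ran the opposite way (-0.27 ± 0.22, adjusted p = 0.415).

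Genes of repair synthesis and ligation, which also serve replication, gave no call by limma in 5 tested, and none had an unadjusted p under 0.05. The flap endonuclease Fen1 was lowest at -0.31 ± 0.17 (adjusted p = 0.248), followed by the ligase Lig1 at -0.19 ± 0.12 (adjusted p = 0.281). The catalytic subunit of polymerase delta, Pold1, had 0.23 ± 0.16 (adjusted p = 0.328), but 0.08 without ADBAQ replicate 3. Pole, of polymerase epsilon, had 0.20 ± 0.13 (0.28 without that array, 0.10 without vehicle replicate 3) and Rpa2, a subunit of the single-strand binding protein RPA, 0.09 ± 0.15. In all 5 the values of the groups overlapped.

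In homologous recombination and crosslink repair none of 4 tested genes was called by limma, and 1 had an unadjusted p under 0.05. Brca2, a tumour suppressor that acts at resected breaks, had 0.36 ± 0.16 (adjusted p = 0.163) on its brightest probe and 0.05 ± 0.35 on a dimmer one; with normexp background correction the first was 0.06. Of the MRN complex, which binds broken ends, Rad50 had 0.33 ± 0.13 (adjusted p = 0.137; 0.07 with normexp background correction and 0.21 without vehicle replicate 3) and Nbn -0.46 ± 0.26 (adjusted p = 0.252). Nbn read 2.90, 3.01 and 2.08 on ADBAQ arrays, against 2.98, 3.31 and 3.07 on vehicle arrays. Its low value came from ADBAQ replicate 3, without which the change was -0.16 (-0.63 to -0.36 without any other single array). Its interval, from -1.08 to 0.17, was the only one among the 26 genes not called that reached beyond 1 log2 unit from 0. Rad54l, a DNA translocase of homologous recombination, had 0.13 ± 0.16. Brca1, a tumour suppressor of the same pathway, and Fancd2, a crosslink repair protein, had probes that were not well above background on any of the 6 arrays, and no fold is given for them.

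Of the Ku heterodimer, which opens end joining by binding the broken end, neither subunit passed, and Xrcc5 (Ku80) and Xrcc6 (Ku70) had opposite signs. Xrcc5 read 2.60, 2.80 and 2.85 on ADBAQ arrays, against 2.31, 2.52 and 2.39 on vehicle arrays, without overlap. Its change of 0.34 ± 0.11 missed the threshold (adjusted p = 0.0786), as did its second probe (0.34 ± 0.10, adjusted p = 0.0579), and it was called with trend and robust in eBayes (adjusted p = 0.0459). Xrcc6 had -0.10 ± 0.09 (adjusted p = 0.456). The difference between these genes was not tested. Rad18, a ubiquitin ligase of damage tolerance, had -0.03 ± 0.22 with an interval from -0.56 to 0.50.

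Among the checkpoint kinases Chek1 rose and the other kinases tested did not pass. Chek1, which encodes CHK1, read -0.81, -0.90 and -0.79 on the ADBAQ arrays, against -2.32, -1.72 and -1.46 on the vehicle arrays. The ADBAQ values lay close together and above all vehicle values, which were spread over 0.86. The change was 1.00 ± 0.22 (adjusted p = 0.0278), or 2.00-fold, the largest of the 31 genes. The call was lost without any one ADBAQ array or without vehicle replicate 2, with adjusted p from 0.0609 to 0.0854. Chek2 (CHK2) had 0.07 ± 0.16 with an interval from -0.32 to 0.47, and Atm -0.14 ± 0.21 with an interval from -0.66 to 0.38. Atm had a dimmer probe with the opposite sign (0.36 ± 0.16, adjusted p = 0.16).

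Chek1 is known to be transcribed mainly in dividing cells, so genes of S phase and mitosis are given beside it. Of 30 such genes listed 23 were tested, of which 7 rose (30.4%, against 9.05% of all genes) and none fell. The 7 were Tpx2, Cdt1, Kif11, Ccne1, Gins1, Tyms and Bub1. The other 16 did not pass, and the 23 values ran from -0.10 (Rrm1) to 1.64 (Ccnb1), with a median of 0.85. Ccnb1 read -5.83, -3.55 and -3.43 on the vehicle arrays, and its probe was well above background on only 2 of these. Mcm7 had -0.07 and Cdc45 0.04. Their summed level, in multiples of the array's 75th percentile over the 23 genes, was 15.5, 13.9 and 16.5 on ADBAQ arrays, against 8.74, 12.2 and 12.5 on vehicle arrays. The array with the lowest sum, vehicle replicate 1, also had the lowest Chek1 value, and 17 of the 23 genes were lowest on it. Without that array Chek1 was still called, at 0.76 ± 0.12 (adjusted p = 0.0254). The 5 tested genes of repair synthesis and ligation in the set, which also serve replication, were not called and ran from -0.31 to 0.23. The part of dividing cells in the rise of Chek1 was not tested.

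The 26 genes not called mostly had intervals within 1 log2 unit of 0, and fewer had intervals within 0.5. Their log2 fold changes ran from -0.46 to 0.36, 16 above 0 and 10 below, and their 95% intervals from -1.08 to 0.75. For 12 of them the whole interval lay within 0.5 of 0, and for 25 within 1. The median SD between rats of a group was 0.14 in ADBAQ and 0.14 in vehicle. Of 15 genes with several tested probes, all tested probes had the same sign in 11. A missed threshold does not show that the level was equal, and the intervals bound the changes that these 3 arrays per group allow.

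Other genes of the same pathways, listed from textbook knowledge, gave a like count. Of 120 such genes 95 had a probe and 89 were tested. Among the 89, 12 rose and 3 fell (16.9% called, median 0.10), against 20.3% of all genes called. With normexp background correction the counts were 16 and 7, where 35.6% of all genes were called. With the spike-in scaling they were 84 and 0, where 80.4% of all genes were called. By pathway the share of these genes called ran from 0% in direct reversal (2 tested) and damage tolerance (8 tested) to 30.8% in nucleotide excision repair (13 tested). It was 10% in base excision repair (10 tested) and 23.1% in checkpoint signalling (13 tested). These are shares of few genes, and differences between pathways were not tested. The largest call was in checkpoint signalling. Wee1, the kinase that restrains CDK1, read 1.32, 1.16 and 1.27 on ADBAQ arrays, against -0.06, 0.20 and -0.63 on vehicle arrays, a 2.66-fold rise (1.41 ± 0.21, adjusted p = 0.0107). All 3 Wee1 probes were called, with the others at 1.75 ± 0.23 and 1.44 ± 0.30. Cdc25b, a phosphatase that opposes Wee1, also rose (1.02 ± 0.24, adjusted p = 0.0337), again on all 3 of its probes. Both a kinase that holds entry into mitosis and a phosphatase that drives it were thus higher.

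Ube2t, the ubiquitin-conjugating enzyme of crosslink repair, had the highest value of these genes at 1.71 ± 0.67 but did not pass (adjusted p = 0.123). It read -2.62, -3.02 and -2.74 on ADBAQ arrays, against -6.16, -3.68 and -3.67 on vehicle arrays. Its probe was well above background on only 2 vehicle arrays, so the size of the value leans on vehicle replicate 1. This gene is named after its value was seen. Tdp1, which frees trapped topoisomerase from DNA ends, rose by 0.58 ± 0.09 (adjusted p = 0.0108), and Pold2, a subunit of polymerase delta, by 0.57 ± 0.12 on the probe used and 0.50 ± 0.12 on the other one. Mlh3, a mismatch repair protein, rose by 0.49 ± 0.09 on the probe used, while its other probe did not pass (0.20 ± 0.11, adjusted p = 0.256). Mnat1, of the kinase part of transcription factor IIH, rose by 0.43 ± 0.10 on the probe used. Its other probe just missed the threshold (0.34 ± 0.09, adjusted p = 0.0525). Ercc6, of transcription-coupled repair, rose by 0.45 ± 0.12 on the probe used, but its other probes gave -0.03 ± 0.28 and -0.10 ± 0.15. On the probes used, the adjusted p of Pold2, Mlh3, Mnat1 and Ercc6 lay between 0.0188 and 0.0448. Polq, the polymerase of a back-up end joining route, changed by -0.49 ± 0.11 (adjusted p = 0.032). With 1 array left out the count called higher lay between 3 and 6 and the count called lower between 0 and 1. The share called among all genes also dropped in these fits, from 20.3% to between 7.89% and 13.5%. The lowest count called higher came without ADBAQ replicate 3, and the 1 gene called lower without ADBAQ replicate 2.

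**Figure D3:**
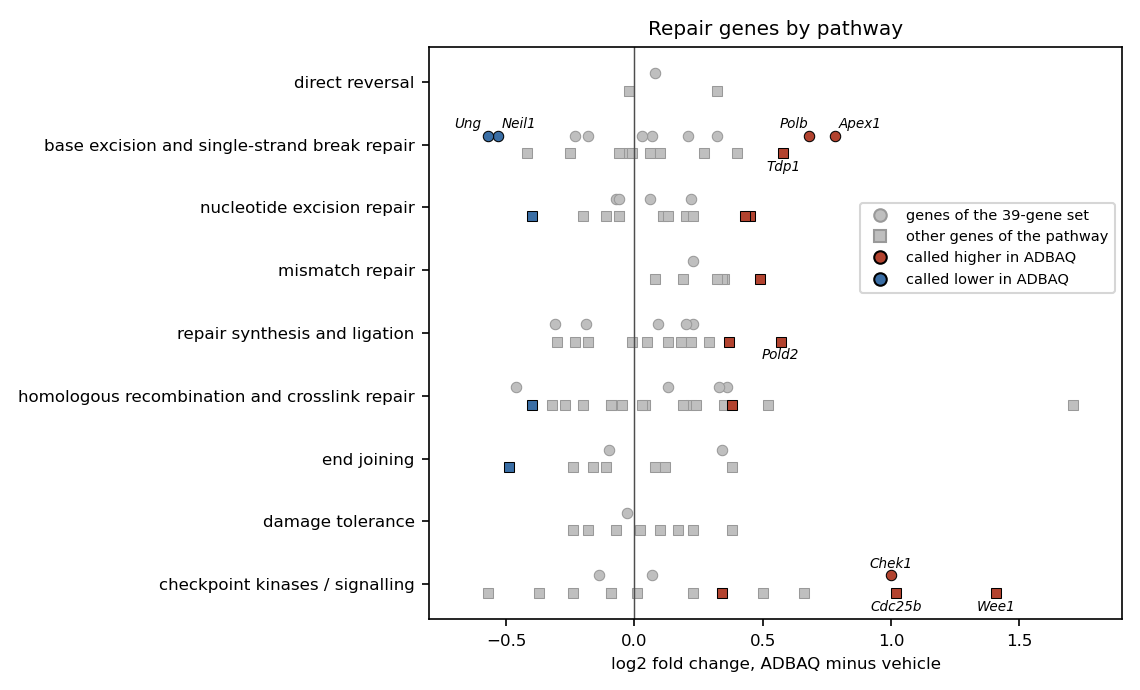
Log2 fold change (ADBAQ minus vehicle, horizontal axis) of the 31 tested genes of the set (circles) and of 87 of the 89 other genes of the same pathways (squares), by pathway, in red where called higher in ADBAQ, blue where called lower and grey otherwise. Wee1, Cdc25b and Chek1 stand beyond the other called genes plotted, between 1.00 and 1.41.

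On each array between 62.1% and 65.3% of the 61657 non-control probes were well above background, and no such probe was saturated. The 75th percentile of the signal was between 570 and 643 on ADBAQ arrays and between 433 and 461 on vehicle arrays. The ADBAQ arrays were on one slide and were scanned on one day, the vehicle arrays on another slide and day, and an effect of either cannot be told apart from that of ADBAQ. All 10 hepatocyte markers were detected; 1 rose and 7 fell, with sums of 5020 to 5400 times the 75th percentile in ADBAQ and 7040 to 7530 in vehicle. Of 6 cholangiocyte markers tested 3 rose and 1 fell (sums 2.78 to 4.28 in ADBAQ, 1.76 to 2.04 in vehicle). No macrophage, fibroblast or endothelial marker was called by limma, and 1 of 6 lymphocyte markers fell. The sums were 76.9 to 88.4 in ADBAQ against 70.6 to 88.8 in vehicle for 8 macrophage markers, 28.2 to 32.4 against 31.3 to 42.1 for 8 stellate and fibroblast markers, 30.7 to 34.9 against 37.3 to 41.2 for 5 endothelial markers, and 2.32 to 2.39 against 2.28 to 2.78 for 6 lymphocyte markers. The part of these shifts in the repair gene values was not tested.

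**Figure D4:**
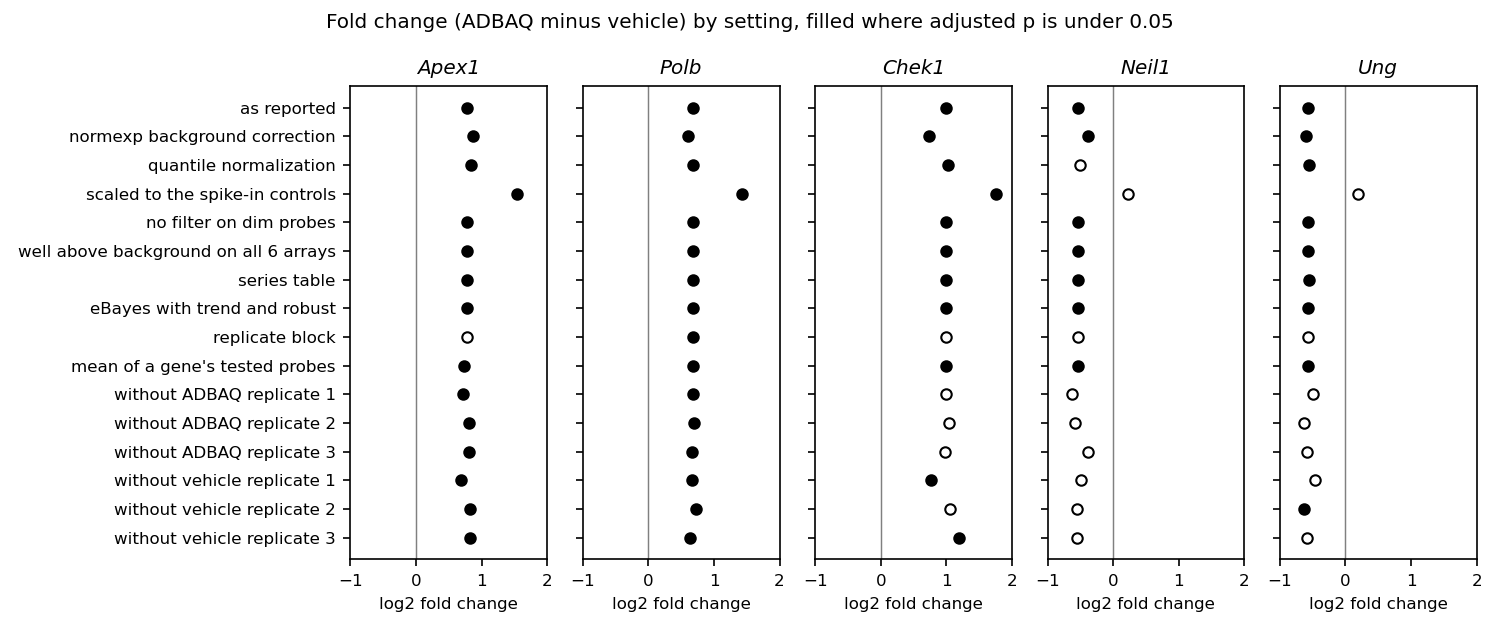
Log2 fold change (ADBAQ minus vehicle, horizontal axis) of the 5 called genes as reported and under each other setting down the page, filled where the adjusted p was under 0.05. Polb was called under all 15 other settings, Apex1 under 14, Chek1 under 10, Ung under 8 and Neil1 under 6.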

How the data were processed

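Each deposited scanner file gives a linear intensity per spot, read with Agilent Feature Extraction 10.7.1.1 per the file headers (10.7 per the submitters' processing notes), on an array design built on rn4. The processed signal had been background-subtracted by that program. Flag and control columns, of the kind other, mark spots as well above background, saturated or outlying, per the file headers. The deposited series table holds a ratio, the processed signal over the array's 75th percentile, as found by setting it against the scanner values; what the authors did to make it is not given in the sources used here.

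Probes were named through unversioned RefSeq accessions (27460 of 61657). The processed signal was divided by its 75th percentile on that array and put on a log2 scale; spots marked as outliers (0 to 2 on each array) were dropped. The 38695 probes marked as well above background throughout the ADBAQ or the vehicle arrays were fitted with limma 3.58.1 in R 4.3.3 (lmFit, eBayes), with Benjamini-Hochberg adjustment over all of them and a threshold of 0.05. For each gene the brightest probe over all arrays was used. The SE is that of eBayes. The number of arrays limits precision. The p-values set the difference between groups against the spread within groups that eBayes estimates, with 1 array per rat. They do not separate ADBAQ from slide or scan day.

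Named with values on every array were genes called or with adjusted p under 0.1, and the others by pathway; of other repair genes, the 10 largest calls, 2 of which are not reported here. The genes, lists and tests were chosen with earlier results of these data known. Alternatives were normexp background correction (offset 50, on the median spot signal, as no mean spot signal is in the files), quantile normalization, scaling to 8 spike-in controls, no filter, a filter on all 6 arrays, trend and robust in eBayes, the series table, a replicate block, averaged probes per gene and dropping each array in turn. Slide could not be a block because each held 1 group. The procedure was also run on simulated data. It recovered 1.52% of 66 probes with a set log2 change of 0.5, 50.7% of 67 at 1 and 85.1% of 67 at 2. It called 6 of 38495 probes with no change. Nearly all simulated probes (38495 of 38695) had no change, unlike the real data, where 20.3% of genes were called.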

Additional observations from a re-analysis of the deposited data

How the results depend on the processing

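With 1 array left out, the count of genes of the set called higher lay between 2 and 3 and that called lower between 0 and 1. Those of the other repair genes lay between 3 and 6 and between 0 and 1. The median log2 fold change of the set lay between 0.01 and 0.12. In the same fits between 7.89% and 13.5% of all genes were called, against 20.3% with all 6 arrays. Scaled to the spike-in controls, 28 genes of the set were called higher and 0 lower, and 84 and 0 of the other repair genes. The median of the set was 0.83, and 80.4% of all genes were called. This scaling shifts all genes of an array alike. With normexp background correction 7 other repair genes were called lower, with averaged probes per gene 1, and with quantile normalization 1 gene of the set was called lower. Of all 11344 genes 2647, 1248 and 1115 were called lower under these settings in turn. The remaining counts and medians, under these settings, no filter, the filter on all 6 arrays, the series table and trend and robust, moved by no more than 1.5 times or, for medians, the spread between arrays. Without a filter on dim probes Fancd2 also passed although its probe was near background on all 6 arrays.

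With the replicate block 1 gene of the set was called higher (Polb) and 0 lower, and 3 and 0 of the other repair genes, against 8.66% of all genes. The correlations of deviations from the group means between arrays of the same number were -0.03, -0.02 and 0. No pairing by number was thus seen in the values, and the labels state none. With 3 arrays per group these correlations cannot show how the rats were allotted.

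Signs changed for values near 0 and, with the spike-in scaling, for all below it. That scaling gave 0.52 (Mpg), 0.23 (Neil1), 0.19 (Ung), 0.58 (Xrcc1), 0.62 (Atm), 0.73 (Rad18), 0.66 (Xrcc6), 0.30 (Nbn), 0.68 (Ercc2), 0.70 (Ercc3), 0.45 (Fen1) and 0.56 (Lig1). Normexp background correction gave -0.11 (Chek2), -0.01 (Mgmt), -0.16 (Rad54l), -0.01 (Exo1), -0.06 (Pole) and -0.03 (Rpa2), quantile normalization 0.01 (Ercc3), and averaged probes per gene 0.11 (Atm) and -0.02 (Exo1). With 1 array left out the ranges that crossed 0 were -0.03 to 0.09 (Parp1), -0.31 to 0.03 (Atm), -0.05 to 0.20 (Chek2), -0.20 to 0.12 (Rad18), -0.05 to 0.28 (Mgmt), -0.01 to 0.25 (Rad54l), -0.15 to 0.02 (Ercc2), -0.10 to 0.14 (Xpa) and -0.02 to 0.23 (Rpa2). None of these was called as reported except Neil1 and Ung. The cause of these changes was not tested beyond the shift that the scaling itself makes.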
